A study of Mus musculus with 4 samples.

Results

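The 9 genes described here belong to the S100, annexin and galectin families or encode the intermediate filament protein vimentin: S100a4, S100a6, S100a10, S100a11, Anxa1, Anxa2, Lgals1, Lgals3 and Vim. They were taken by name, and all 9 were found among the 13518 genes of the table. The cells came from tumours that grew in C57BL/6 mice after orthotopic implantation of MC38, a mouse colon carcinoma line. There were 4 arms. The combination arm received ATT-I (Atractylenolide I, a plant sesquiterpene lactone) at 50 mg/kg daily together with anti-PD-1, an antibody that blocks the inhibitory receptor PD-1. The ATT-I arm received ATT-I alone at the same dose, and the anti-PD-1 arm received the antibody alone, 3 times a week for 5 doses. The fourth arm is described as given vehicle where the treatments are set out, but its own entry names no treatment; it is called vehicle here. Tumours were taken in week 2 after treatment began, and 5 tumours were pooled into 1 droplet library per arm, so no arm has a second library and differences between mice cannot be seen.

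S100 proteins are a family of small proteins, most of which change shape on binding calcium and then dock on partner proteins. S100A10 pairs with annexin A2 at the inner face of the cell membrane, and annexins bind membrane phospholipid in a calcium-dependent way. Galectins are lectins that bind beta-galactoside sugars, inside cells or after release. In T cells, transcripts of this group are known as part of the programme that separates effector and memory cells from naive and resting cells, where the transcription factor TCF-1 (Tcf7) marks the less differentiated state. Vimentin filaments are the main intermediate filaments of lymphocytes.

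The genes lie at separate places in the genome, except for 2 pairs of S100 genes on chromosome 3 (GRCm38, GENCODE annotation). S100a4 runs from 90603771 to 90606045 and S100a6 from 90612882 to 90624181, while S100a11 runs from 93520488 to 93526287 and S100a10 from 93555080 to 93564643, all on the plus strand. Anxa1 is on chromosome 19 from 20373428 to 20390944, Anxa2 on chromosome 9 from 69453620 to 69491795, Lgals1 on chromosome 15 from 78926725 to 78930465, Lgals3 on chromosome 14 from 47367751 to 47386160 and Vim on chromosome 2 from 13573927 to 13582826. All 9 are protein-coding. S100a4 overlaps the gene model Gm42674 on the same strand, Anxa1 overlaps 1500015L24Rik, and Anxa2 overlaps Mir3109 and the antisense gene Gm16144. How reads in these overlaps were assigned is not given in the sources used here.

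Promoters of these genes were searched for a TATA box, written TATAAA, and the 4 sequences shown are from among the genes whose levels differed between gates or arms below. RefSeq promoter sequences (GRCm38.p6) were held for 7 of the 9 genes, without S100a10 and Lgals1. In the 60 bases before the start, on the gene's strand, TATAAA was found in 4 of the 7 (S100a4, Anxa1, Anxa2 and Vim), against 3.15% of 27025 promoters. The motif TGANTCA, the AP-1 site, was found on either strand within 300 bases in 2 of the 7, S100a11 and Anxa2, against 7.93% of promoters. The windows are shown 5′ to 3′ on the gene's strand with the motif in capitals, and a match describes letters only. The start is RefSeq's, which for Vim, Anxa2 and S100a11 lies inside the GENCODE gene bounds given above. The S100a4, Vim and Anxa2 lines are the 60 bases before the start (S100a4 at chr3:90603710-90603769, Vim at chr2:13574251-13574310, Anxa2 at chr9:69453623-69453682). Their TATAAA matches begin 31, 32 and 17 bases before the start, in that order. The TATAAA match of Anxa1 and the TGANTCA match of Anxa2 are not shown. The S100a11 line (chr3:93520340-93520484) holds 2 TGANTCA matches, which begin 136 and 38 bases before the start.
S100a4: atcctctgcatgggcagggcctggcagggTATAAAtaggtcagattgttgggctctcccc
Vim: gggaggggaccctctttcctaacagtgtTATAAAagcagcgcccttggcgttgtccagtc
Anxa2: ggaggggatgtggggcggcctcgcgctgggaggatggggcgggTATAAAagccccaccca
S100a11: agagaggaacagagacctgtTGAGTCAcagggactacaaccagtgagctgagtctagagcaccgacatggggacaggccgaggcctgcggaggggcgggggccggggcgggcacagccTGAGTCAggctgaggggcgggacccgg

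The libraries held 199 combination, 297 ATT-I, 12562 anti-PD-1 and 155 vehicle cells. Their totals were 5232593 UMIs in combination, 2878355 in ATT-I, 108628721 in anti-PD-1 and 3099824 in vehicle, where a UMI (unique molecular identifier) marks 1 counted RNA molecule. Median UMIs per cell were 23927 in combination, 6828 in ATT-I, 7148 in anti-PD-1 and 16129 in vehicle, so the arms differ in depth. Summed T cell markers (Cd3d, Cd3e, Cd3g, Trac, Cd2) averaged 36.2, 39.9, 55.2 and 33.6 UMIs per 10000 in that order, while epithelial tumour, fibroblast, neutrophil, B cell and monocyte or macrophage markers each summed to 0.598 or less in every library. Only 1 of 5 neutrophil genes, Cxcr2, was present, so that low sum cannot show whether neutrophils were absent. Of the B cell genes 2 of 4 were present, and of the epithelial tumour genes 5 of 6. Natural killer cell markers (5 genes) summed to 2.15, 3.78, 6.12 and 6.66 UMIs per 10000 and stress-response genes (7 genes) to 50.3, 46.7, 33.2 and 34.6 in combination, ATT-I, anti-PD-1 and vehicle, and their part in the differences between arms was not tested. Haemoglobin transcripts summed to 30.5 UMIs per 10000 in ATT-I, against at most 0.981 in the other libraries, and the part of this RNA in the results was not tested. Within the CD4 conventional gate the monocyte or macrophage list, 6 of 9 genes present, summed to 0.465, 0.0314, 1.17 and 0.205 in combination, ATT-I, anti-PD-1 and vehicle, and several members are also expressed by such cells. Only 1 cell barcode was found in more than 1 library.

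Cells were gated on the counts of a few genes. The CD8 gate held 121 combination, 108 ATT-I, 8854 anti-PD-1 and 49 vehicle cells. The regulatory T cell (Treg) gate, CD4 cells with Foxp3, held 26, 20, 579 and 19, and the CD4 conventional gate, CD4 cells without Foxp3, held 40, 92, 1224 and 55. Each cell's UMIs of a gene were scaled to 10000 UMIs, and the average over the cells of a gate is called its level. Levels of different genes are not compared. Differences between gates were taken within each library, with the 4 libraries as replicates. The libraries differ in treatment, and the p-values measure only the spread between them.

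CD8 cells differed from CD4 conventional cells in the S100 genes, and not all in the same direction. S100a6 was higher in CD8 cells, and S100a4, S100a10 and S100a11 were lower. S100a6, whose product binds calcium and annexins, averaged 12.7 UMIs per 10000 in combination, 14.1 in ATT-I, 20.4 in anti-PD-1 and 10.9 in vehicle CD8 cells, against 9.56, 10.1, 14.4 and 6.69 in CD4 conventional cells of the same libraries. It was higher in CD8 cells in 4 of 4 libraries, by 0.52 ± 0.07 on the log2 scale (SE, n = 4 libraries; limma, Benjamini-Hochberg adjusted p = 0.00121). S100a10, the annexin A2 partner, averaged 9.31, 11.2, 12.9 and 8.65 in CD8 cells, against 13.9, 17.7, 17.2 and 15.9 in CD4 conventional cells, so the gates did not overlap. The log2 difference was -0.63 ± 0.08 (SE; limma adjusted p = 0.000721).

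S100a4, a motility-associated protein that binds non-muscle myosin, averaged 9.08, 8.63, 9.54 and 7.02 in CD8 cells, against 14.4, 12.6, 11.7 and 13.9 in CD4 conventional cells of the combination, ATT-I, anti-PD-1 and vehicle libraries. Every CD8 value was below every CD4 conventional value, and the log2 difference was -0.62 ± 0.10 (SE; limma adjusted p = 0.00255). S100a11 was lower by a smaller margin (-0.45 ± 0.10, SE; limma adjusted p = 0.0120), and its gap was least in anti-PD-1, at 8.06 in CD8 and 8.52 in CD4 conventional cells. In the same contrast 3 of 3 natural killer markers tested were higher in CD8 cells and 4 of 7 stress-response genes were lower, and their part in the S100 differences was not tested. The S100a11 call was lost without the combination, ATT-I or vehicle library (limma adjusted p = 0.0596, 0.0632 and 0.0694). Of 9 members tested, 1 rose and 3 fell, beside 8.07% of 8381 genes higher and 9.96% lower. Among Mki67-negative cells, in 3 libraries, none of these 4 calls was made, with adjusted p from 0.0535 to 0.2165.

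Lgals1, which encodes galectin-1, was close in both gates, at 15.8, 12.8, 18.3 and 11.2 in CD8 cells, against 16.6, 12.0, 18.4 and 12.9 in CD4 conventional cells (log2 difference -0.05 ± 0.07, SE; limma adjusted p = 0.684). Anxa2 was higher in CD8 cells in 4 of 4 libraries by 0.22 ± 0.09 on the log2 scale (SE) without passing the test (limma adjusted p = 0.140). Vim, at -0.18, and Lgals3, at 0.03, did not pass either.

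**Figure D1:**
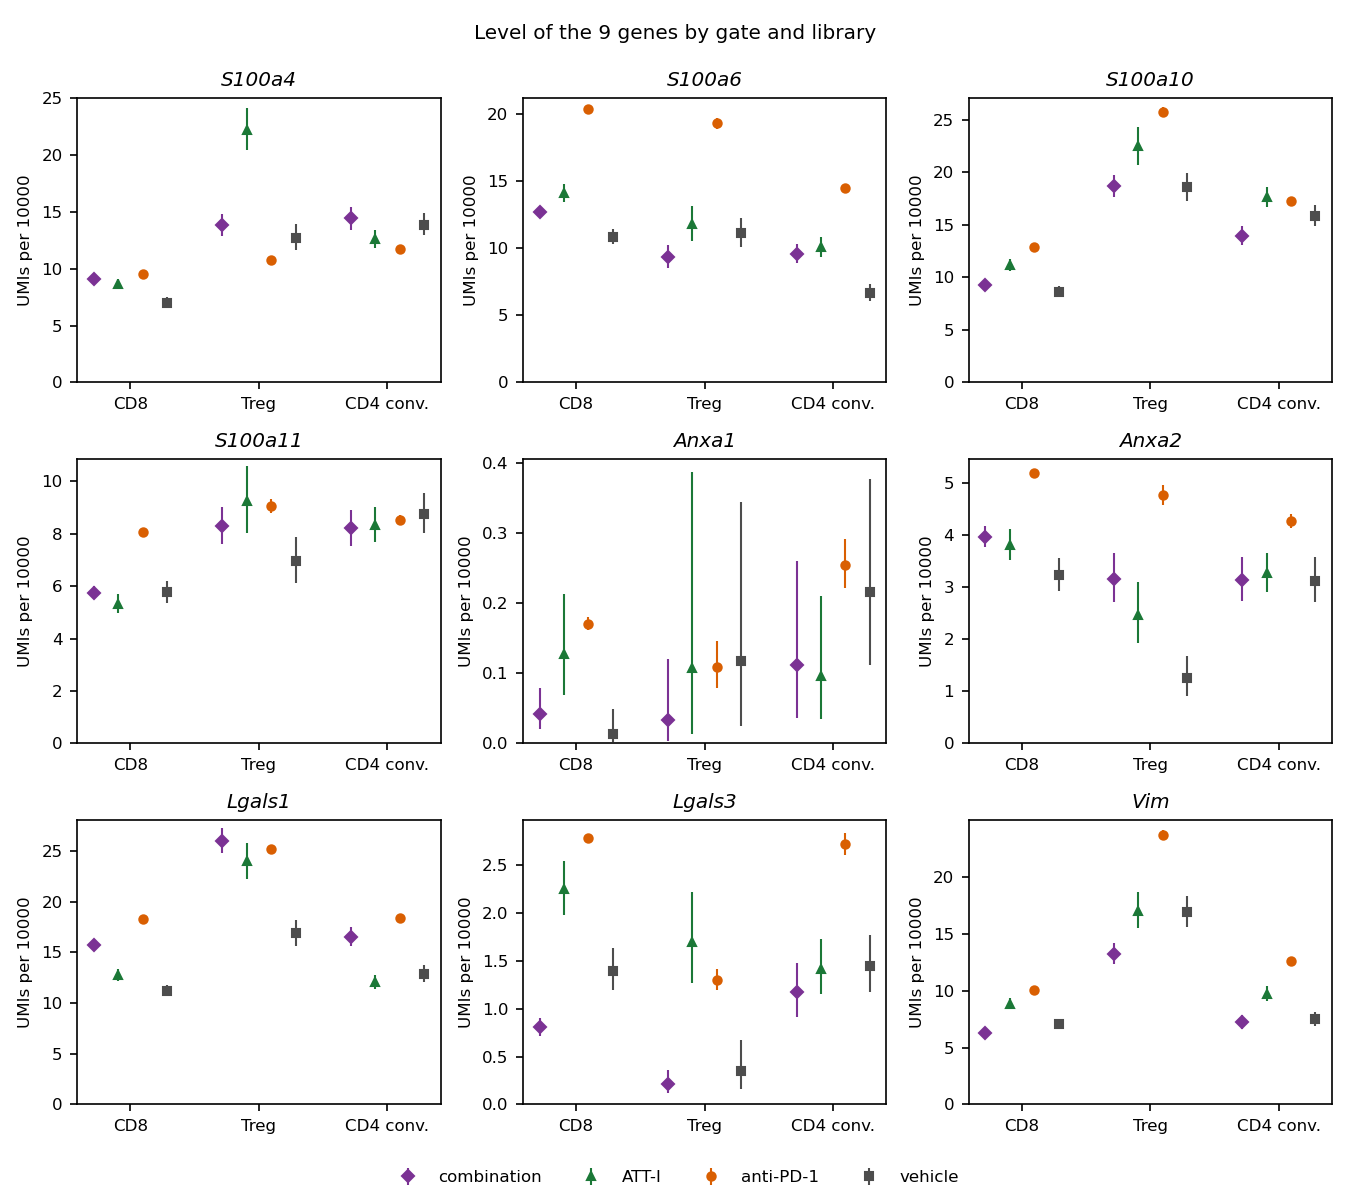
Mean UMIs per 10000 (y axis, from 0) of each gene in the CD8, Treg and CD4 conventional gates, with 1 point per library (combination, ATT-I, anti-PD-1, vehicle from left to right) and bars for the exact Poisson 95% interval, which covers counting error only. Vim in Treg cells lies between 13.3 and 23.6, above the CD4 conventional value of the same library in each case.

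Treg cells stood out by Vim and galectin-1. Vim averaged 13.3 UMIs per 10000 in combination, 17.0 in ATT-I, 23.6 in anti-PD-1 and 16.9 in vehicle Treg cells, against 7.20, 9.72, 12.6 and 7.47 in CD4 conventional cells. All Treg values lay above all CD4 conventional values, and the log2 difference was 0.93 ± 0.13 (SE, n = 4 libraries; limma adjusted p = 0.000224). Lgals1 averaged 26.0, 24.0, 25.2 and 16.9 in Treg cells, against 16.6, 12.0, 18.4 and 12.9 in CD4 conventional cells. It was higher in 4 of 4 libraries, by 0.62 ± 0.14 (SE; limma adjusted p = 0.0117), although the vehicle Treg value lay within the range of the CD4 conventional values. Without the ATT-I library the adjusted p was 0.1815.

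Lgals3, which encodes galectin-3, moved the other way. It averaged 0.218, 1.70, 1.30 and 0.352 in Treg cells, against 1.17, 1.42, 2.72 and 1.45 in CD4 conventional cells of the combination, ATT-I, anti-PD-1 and vehicle libraries. It was lower in 3 of 4 libraries and slightly higher in ATT-I, with a log2 difference of -1.14 ± 0.27 (SE; limma adjusted p = 0.0161). The call was lost without the combination library (adjusted p = 0.2068) or the vehicle library (0.0560). Of 9 members, 2 rose and 1 fell, beside 2.67% of 8129 genes higher and 3.15% lower. S100a10 was higher in Treg cells in 4 of 4 libraries at 0.39 ± 0.13 (SE) and did not pass (limma adjusted p = 0.0926). S100a4 averaged 13.8, 22.2, 10.8 and 12.7 in Treg cells, against 14.4, 12.6, 11.7 and 13.9 in CD4 conventional cells, and was higher in ATT-I alone (log2 difference 0.13 ± 0.16, SE; limma adjusted p = 0.723). The Treg gate rests on 19 to 26 cells in the combination, ATT-I and vehicle libraries. Mki67 was found in 17 of 26 combination, 11 of 20 ATT-I, 212 of 579 anti-PD-1 and 18 of 19 vehicle Treg cells. In CD4 conventional cells it was found in 19 of 40, 17 of 92, 305 of 1224 and 26 of 55. Median depth was 23344, 10587, 6654 and 15861 UMIs in Treg cells, against 12422, 5567, 5521 and 7673. In Mki67-negative anti-PD-1 cells Vim averaged 23.5 in Treg and 12.1 in CD4 conventional cells, and Lgals1 23.6 and 16.9. The part of Mki67 and depth was not tested.

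Within CD8 cells, those with a Tcf7 UMI had lower S100a4, S100a6, S100a11 and Lgals1 than those without. Lgals1 averaged 9.71 UMIs per 10000 in combination, 8.49 in ATT-I, 12.7 in anti-PD-1 and 7.9962 in vehicle Tcf7-positive cells, against 16.9, 15.2, 19.3 and 12.3 in Tcf7-negative cells. It fell by 0.71 ± 0.10 on the log2 scale (SE, n = 4 libraries; limma adjusted p = 0.00438) and was lower in 4 of 4 libraries. S100a6 averaged 7.38, 8.98, 14.7 and 7.93 in Tcf7-positive cells, against 13.7, 17.0, 21.3 and 11.8 in Tcf7-negative cells, a log2 difference of -0.72 ± 0.11 (SE; limma adjusted p = 0.00586). Within each library the Tcf7-positive value of both genes was the lower one, though the anti-PD-1 Tcf7-positive values exceed the vehicle Tcf7-negative values.

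S100a11 averaged 4.48, 3.47, 5.55 and 3.87 in Tcf7-positive cells, against 5.99, 6.38, 8.4991 and 6.38 in Tcf7-negative cells (log2 difference -0.65 ± 0.12, SE; limma adjusted p = 0.0146). The groups did not overlap. S100a4 averaged 4.37, 4.71, 5.43 and 6.98 in Tcf7-positive cells, against 9.95, 10.8, 10.3 and 7.03 in Tcf7-negative cells of the combination, ATT-I, anti-PD-1 and vehicle libraries. Its difference was -0.82 ± 0.17 (SE; limma adjusted p = 0.0311), and the vehicle library, with 12 Tcf7-positive cells, showed almost none. The S100a4 call was lost without the combination (0.1312), ATT-I (0.229) or anti-PD-1 library (0.0633). The S100a11 call was lost without ATT-I (0.0927) or anti-PD-1 (0.0706), the S100a6 call without ATT-I (0.0542), and the Lgals1 call in none of the 4 cases.

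Of 8 members tested, 0 rose and 4 fell, beside 0.572% of 8568 genes higher and 1.14% lower. The other 4, S100a10, Anxa2, Lgals3 and Vim, were also at negative values, from -0.79 to -0.15 on the log2 scale, and did not pass. The median over the 8 members was -0.68, and over all genes -0.09. Anxa1, whose product is an annexin known for damping inflammation, had a UMI in too few CD8 cells to be tested. Depth differed between the gates in ATT-I, with a median of 7574 UMIs in Tcf7-positive and 12560 in Tcf7-negative CD8 cells. It also differed in the combination, at 21809 and 29330, and was 8007 and 7872 in anti-PD-1 and 24163 and 24559 in vehicle. Among cells of 5000 to 20000 UMIs, only 2 libraries, ATT-I and anti-PD-1, had enough cells. There S100a4, S100a6 and Lgals1 still passed (limma adjusted p = 0.0182, 0.0238 and 0.0143), and S100a11 did not (0.0553). Lgals3 passed there (-1.61; limma adjusted p = 0.0151).

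In CD4 conventional cells, S100a4 passed the same test. It averaged 5.74 in combination, 9.88 in ATT-I, 6.74 in anti-PD-1 and 7.64 in vehicle Tcf7-positive cells, against 20.2, 14.3, 13.3 and 15.9992 in Tcf7-negative cells. The groups did not overlap, and the log2 difference was -1.09 ± 0.16 (SE, n = 4 libraries; limma adjusted p = 0.00708). Of 9 members, 0 rose and 1 fell, beside 0.275% of 7629 genes higher and 0.708% lower. The 8 members other than Anxa1 were all at negative values, beside a median of -0.04 over all genes. Anxa1 was negative too, but it has few UMIs, and a filter met in either gate can favour the gate where a gene is higher. Lgals1 was at -0.50 ± 0.13 (SE; limma adjusted p = 0.124). The difference between the Tcf7 effects in CD8 and CD4 conventional cells passed for 0 of 8 members (limma adjusted p from 0.798 to 0.995, unadjusted p under 0.05 for S100a11 alone, 0.0228), beside 0.0403% of 7439 genes higher and 0% lower. Of those 7439 genes, 464 had an unadjusted limma p under 0.05.

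**Figure D2:**
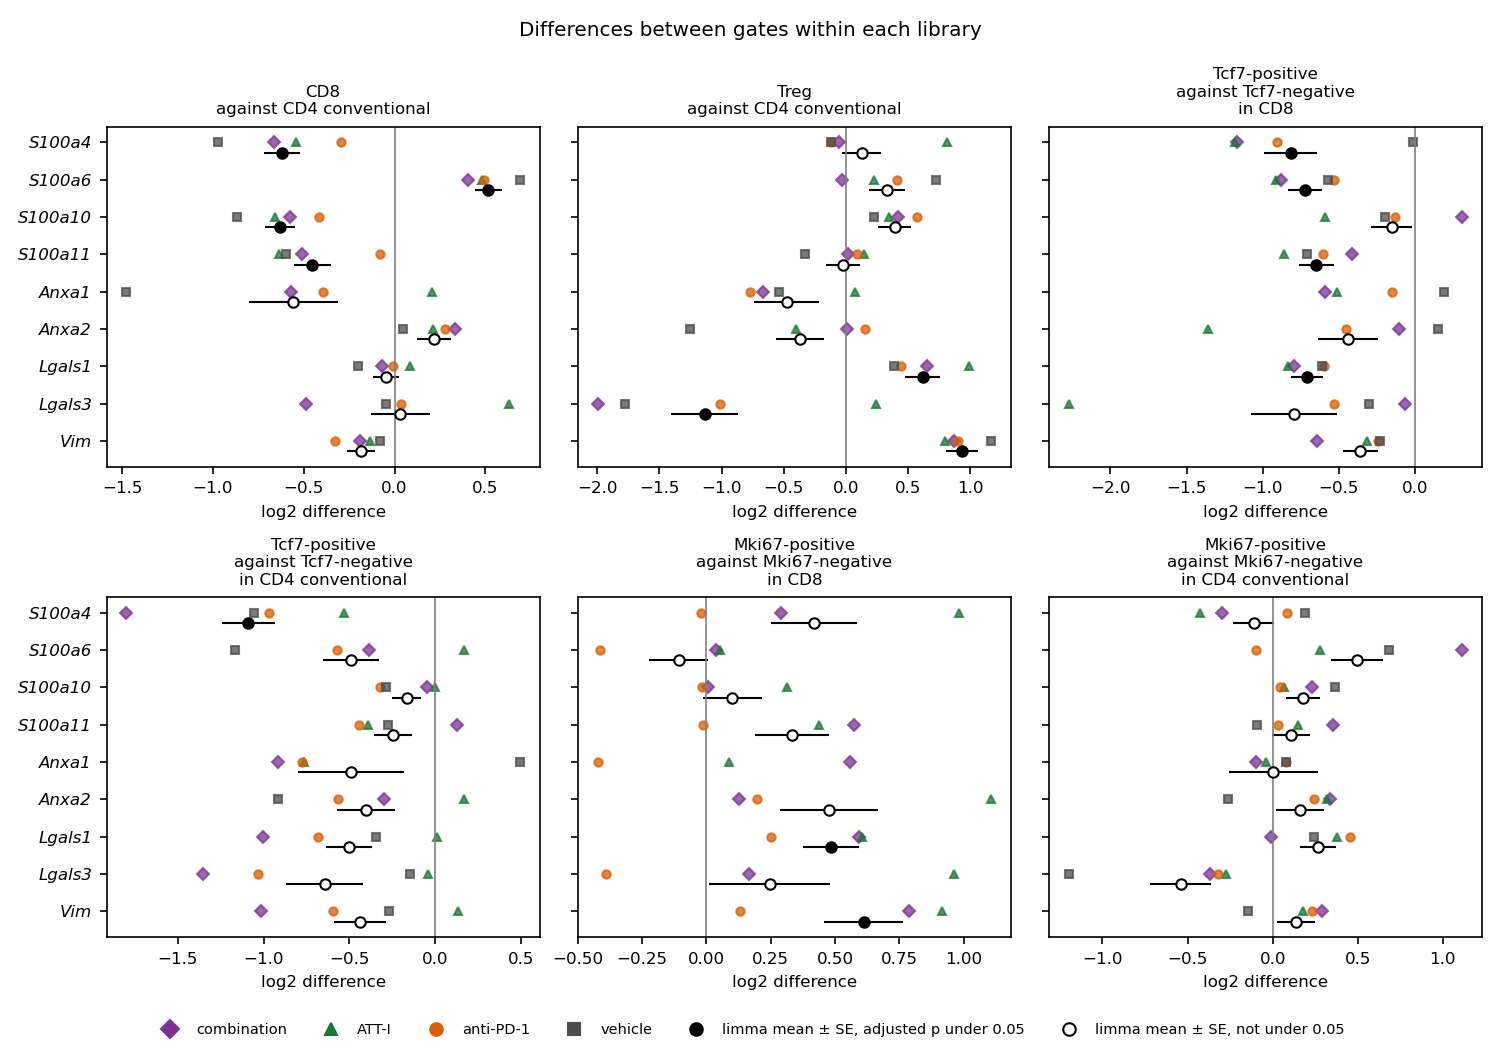
Log2 difference between gates (x axis) of each gene in each library (coloured symbols) with the limma mean and its standard error (circles below, filled where the adjusted p is under 0.05), in 6 contrasts named above each panel, with no circle where a gene was not tested. For Tcf7 in CD8 cells the 4 filled circles lie between -0.82 and -0.65.

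The anti-PD-1 library had enough cells to follow the number of Tcf7 UMIs per cell. Among CD8 cells with 0, 1, 2 and 3 or more Tcf7 UMIs (7538, 775, 306 and 235 cells), S100a4 averaged 10.3, 6.17, 4.97 and 3.57 UMIs per 10000. S100a6 averaged 21.3, 16.5, 13.9 and 9.98 in the same classes, and Lgals1 19.3, 13.7, 11.7 and 10.9. Each of these was lower in every further class. The class with most Tcf7 kept 34.8% of the S100a4 level of cells without Tcf7 (Poisson 95% interval 32.8 to 36.9), but 79.8% of the S100a10 level (77.0 to 82.7) and 80.9% of the Vim level (77.7 to 84.1). Median depth was 7872, 7315, 8431 and 10732 UMIs, so the class with most Tcf7 was the deepest.

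In CD4 conventional cells of that library, with 935, 162, 66 and 61 cells in the classes, S100a4 averaged 13.3, 8.21, 5.33 and 4.37. Vim, at 13.7, 10.4, 9.12 and 5.31, was there at 38.7% (34.3 to 43.5) of its Tcf7-free level in the last class. These are cells of 1 library, and the intervals cover counting error only.

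Both markers were then read together in the anti-PD-1 CD8 cells, of which 416 had Tcf7 and Mki67, 900 Tcf7 only, 2702 Mki67 only and 4836 neither. S100a4 averaged 5.40 with both, 5.44 with Tcf7 only, 10.1 with Mki67 only and 10.4 with neither, so in this library its level differed with Tcf7 and hardly with Mki67. S100a6 averaged 12.2, 15.9, 17.4 and 23.5 in the same order, lower with either marker and lowest with both. Lgals1 averaged 14.6, 11.9, 21.4 and 18.2, lower with Tcf7 and higher with Mki67. Median depth was 12549, 6972.5, 11465 and 6871.5 UMIs in that order.

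Cells with Mki67, a marker of cycling cells, carried more Vim and Lgals1 among CD8 cells. Vehicle had 4 Mki67-negative CD8 cells and was left out, so 3 libraries were compared. Lgals1 averaged 16.3 in combination, 16.1 in ATT-I and 20.5 in anti-PD-1 Mki67-positive cells, against 10.8, 10.6 and 17.2 in Mki67-negative cells (log2 difference 0.48 ± 0.11, SE, n = 3 libraries; limma adjusted p = 0.0205). Vim averaged 6.57, 12.4 and 10.6 in Mki67-positive cells, against 3.77, 6.51 and 9.73 in Mki67-negative cells (0.61 ± 0.15, SE; limma adjusted p = 0.0368). Both genes were higher in 3 of 3 libraries, with the smallest gap in anti-PD-1. The Vim call was lost without ATT-I (adjusted p = 0.0933). S100a4 was at 0.42 on the log2 scale over the same 3 libraries and did not pass, though it passed in 2 of 3 fits that left out 1 library.

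Of 8 members, 2 rose and 0 fell, beside 5.42% of 8380 genes higher and 0.835% lower. Mki67-positive CD8 cells were deeper, with a median of 30853 UMIs in combination, 18254 in ATT-I and 11624 in anti-PD-1, against 13759.5, 6727 and 6884 in Mki67-negative cells. Among cells of 5000 to 20000 UMIs, in 2 libraries, neither gene passed (limma adjusted p = 0.0853 for Vim and 0.1505 for Lgals1). In CD4 conventional cells, 0 of 9 members passed in limma, beside 3.33% of 8161 genes higher and 0.355% lower. An unadjusted limma p under 0.05 was found for 3 of the 9, beside 1159 of the 8161 genes. The difference between the Mki67 effects in CD8 and CD4 conventional cells passed for 0 of 8 members (limma adjusted p from 0.7775 to 0.9883), beside 0% of 7817 genes higher and 0% lower, while 455 genes had an unadjusted p under 0.05. Among members S100a6 had the lowest unadjusted p, 0.00945, at -0.11 in CD8 and 0.43 in CD4 conventional cells.

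Within the anti-PD-1 library, members split over the number of Mki67 UMIs. In CD8 cells with 0, 1, 2 and 3 or more Mki67 UMIs (5736, 1231, 369 and 1518 cells), S100a6 averaged 22.3, 20.7, 19.7 and 12.8, and Lgals3 3.05, 2.77, 2.47 and 1.88. Lgals1 ran the other way, at 17.2, 19.3, 20.9 and 21.3, and so did Anxa2, at 4.95, 5.39, 5.70 and 5.92. S100a10 lay between 12.7 and 12.9737. Over the 3 libraries compared above, Lgals3 was at 0.25 on the log2 scale in Mki67-positive CD8 cells and did not pass. With 1 library left out it ranged from -0.11 to 0.56, so its lower values with Mki67 hold for the anti-PD-1 library. In CD4 conventional cells with 3 or more Mki67 UMIs, Lgals1 was at 167.7% (162.6 to 172.9) and Vim at 150.2% (144.5 to 156.2) of the level in cells with none. S100a6 was there at 68.6% (64.9 to 72.4) and Lgals3 at 54.7% (47.0 to 63.4), so S100a6 ran lower in this library while its mean over libraries was higher. Median depth in the CD8 classes was 6884, 8228, 9550 and 15377.5 UMIs, and its part in these values was not tested.

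**Figure D3:**
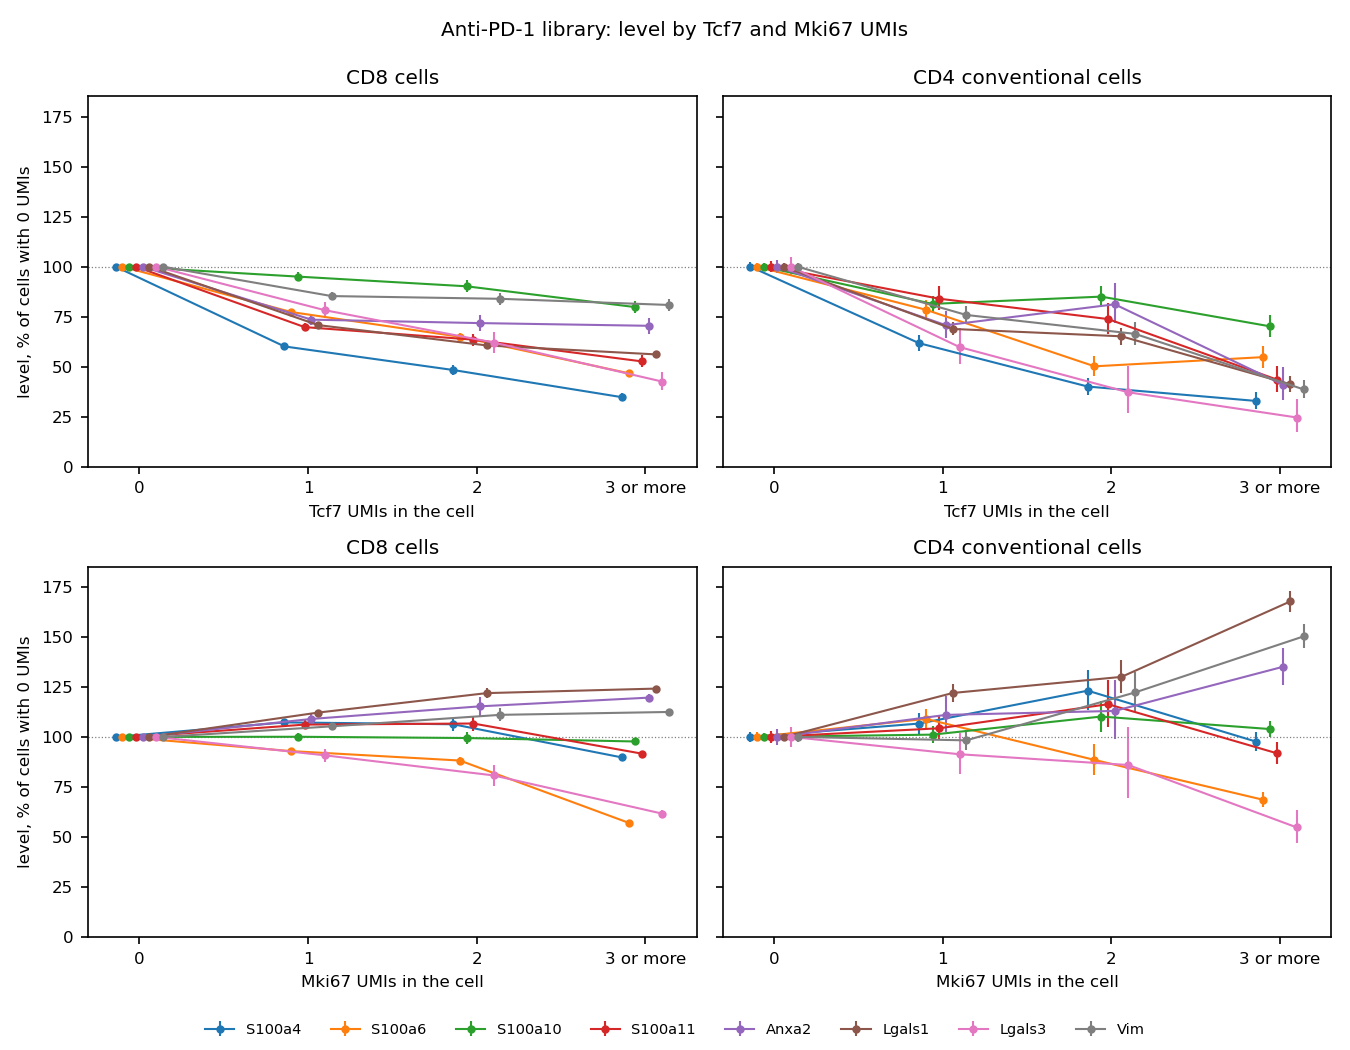
Level in the anti-PD-1 library as a percentage of the level in cells with 0 UMIs of Tcf7 (top) or Mki67 (bottom), against the number of those UMIs in the cell, for 8 genes (Anxa1 is not drawn) in CD8 (left) and CD4 conventional cells (right), with Poisson 95% intervals. In the top left panel S100a4 falls to 34.8% and S100a10 to 79.8%.

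Cell by cell, the members went together to different degrees. Over the 8854 anti-PD-1 CD8 cells, Pearson r of the deposited values was 0.47 for S100a4 with Lgals1 and 0.43 for Anxa2 with Lgals1. It was 0.12 for S100a10 with Anxa2, whose proteins bind each other, and 0.18 for that pair in 1224 CD4 conventional cells. Anxa1 was at 0.16 or less with every other member. Over 10657 gated anti-PD-1 cells and 3354 genes, the genes most like the mean of 8 members (without Anxa1) were Sh3bgrl3 (r = 0.46), Tmsb4x (0.45), Capg (0.43), Actg1 (0.42) and Myl6 (0.42), followed by AA467197, Fxyd5, Ctsd, Cd52 and Gapdh. Tmsb4x, Capg and Actg1 encode an actin-sequestering peptide, an actin-capping protein and an actin. The least alike were the ribosomal protein genes Rplp1 (-0.37), Rps16, Rps29, Rps21 and Rpl12. These cells share 1 library, and the mean of the members had an r of 0.17 with log depth.

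Between arms, S100a6, Anxa2 and Lgals3 stood at least 1.5-fold higher in anti-PD-1 than in vehicle, and S100a6, Lgals3 and Vim at least 1.5-fold lower in the combination than in anti-PD-1. The Lgals3 rise in anti-PD-1 did not reach 1.5-fold when UMIs were summed over cells, at 26014 of 108628721 UMIs against 589 of 3099824 in vehicle. With 1 library per arm there is no test, and intervals cover counting error only. In all cells S100a6 averaged 11.3 UMIs per 10000 in combination, 12.3 in ATT-I, 18.9 in anti-PD-1 and 9.25 in vehicle. Lgals3 averaged 0.762, 1.80, 2.56 and 1.57, and Vim 7.30, 10.1, 11.6 and 8.33. Anti-PD-1 had the highest value of all 3 genes. S100a4 varied least, at 10.7, 11.2, 9.42 and 10.0. In these pooled cells, a shift in cell types and a shift within cells cannot be told apart, so the gates follow. Anxa1 was found in 7.04% of combination, 10.4% of ATT-I, 10.5% of anti-PD-1 and 14.8% of vehicle cells, and often met the filter of 10% of cells only in the arm where it was higher. Its values are therefore given apart, and the counts and medians cover the other 8 members unless all 9 are named.

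For anti-PD-1 against vehicle, 3 of 8 members were at least 1.5-fold higher and 0 lower, beside 6.48% of 8475 genes higher and 36.1% lower. They were S100a6 (log2 ratio 1.03, Poisson 95% interval 0.98 to 1.09), Lgals3 (0.70, 0.59 to 0.83) and Anxa2 (0.63, 0.55 to 0.73), while S100a4 was at -0.08. The median was 0.51 over the 8 members and -0.34 over all genes. Among cells of 5000 to 20000 UMIs, whose median depth was 8173 UMIs in anti-PD-1 against 9935.5 in vehicle, 4 of 8 were higher (these 3 and Lgals1) and 0 lower, beside 8.87% of 8024 genes higher and 43.4% lower.

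In the CD8 gate of the same comparison 4 of 8 members were higher and 0 lower, beside 10.3% of 9103 genes higher and 37.9% lower, with Lgals3 at 0.99 and S100a6 at 0.91. In the CD4 conventional gate 3 of 8 were higher and 0 lower, beside 10.4% of 7549 genes higher and 36.9% lower, with S100a6 at 1.11. In Mki67-positive CD8 cells 5 of 8 were higher and 0 lower, beside 10.8% of 9027 genes higher and 36.9% lower. Cells in no gate differed from these. There 3 of 8 were higher and 1 lower, beside 16.6% of 7848 genes higher and 26.5% lower, and the lower one was Lgals3, at 1.81 in anti-PD-1 and 2.78 in vehicle (-0.62, -0.79 to -0.44). Natural killer markers summed to 6.83 in anti-PD-1 and 24.3 in vehicle ungated cells, and their part in this was not tested.

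For ATT-I against vehicle, 0 of 8 members passed 1.5-fold in either direction in all cells, beside 3.88% of 8484 genes higher and 36.3% lower. The median was 0.17 over the 8 members, with S100a6 the highest at 0.42, and -0.38 over all genes. Lgals3 was at 0.20 when averaged over cells. With summed UMIs it was lower in ATT-I, at 501 of 2878355 UMIs against 589 of 3099824 in vehicle. Among cells of 5000 to 20000 UMIs, S100a6 (0.61, Poisson 95% interval 0.50 to 0.72) and Lgals3 (0.76, 0.46 to 1.06) were higher and 0 lower, beside 5.3% of 8043 genes higher and 44.4% lower. In Mki67-negative cells the median over all 9 members, Anxa1 included, was -0.0495. In the CD8 gate 1 of 8 was higher, Lgals3 (0.69), and 0 lower, beside 7.51% of 9152 genes higher and 40.5% lower. In the CD4 conventional gate 1 of 8 was higher, S100a6 (0.59), and 0 lower, beside 8.33% of 7620 genes higher and 39.5% lower. In ungated cells 2 of 8 were higher, Vim (0.68) and S100a4 (0.68), and 2 lower, Anxa2 (-0.94) and Lgals3 (-0.74), beside 14.1% of 7915 genes higher and 35.9% lower.

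Cycling cells made up different shares of the CD8 gate, with Mki67 in 43 of 108 ATT-I and 45 of 49 vehicle CD8 cells. Among Mki67-positive CD8 cells, 5 of 8 members were at least 1.5-fold higher in ATT-I and 0 lower, beside 10.2% of 9193 genes higher and 36.6% lower. Lgals3 was there at 1.26, S100a4 at 0.92, Vim at 0.88, Anxa2 at 0.80 and S100a6 at 0.60. Those cells had a median of 18254 UMIs in ATT-I and 25089 in vehicle, and the part of depth in these ratios was not tested.

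For the combination against vehicle, 0 of 8 members were 1.5-fold higher and 1 lower, beside 4.9% of 8853 genes higher and 16.3% lower. It was Lgals3 (-1.04, Poisson 95% interval -1.24 to -0.86). The median was -0.03 over the 8 members and -0.11 over all genes, with Lgals1 the highest at 0.43. Among cells of 5000 to 20000 UMIs, Lgals3 was at -0.31 (-0.70 to 0.07) and 0 of 8 passed in either direction, beside 10.5% of 8491 genes higher and 19.6% lower. In CD8 cells Lgals3, at 0.805 UMIs per 10000 in combination and 1.40 in vehicle, was the 1 of 8 lower and 0 were higher, beside 20.7% of 9281 genes lower and 7.26% higher. Among Mki67-positive CD8 cells it was again the 1 of 8 lower (-0.72), beside 21.8% of 9266 genes lower and 7.07% higher. In CD4 conventional cells 0 of 8 passed, beside 17% of 8552 genes higher and 21.9% lower, and Lgals3 was at -0.31.

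For the combination against anti-PD-1, 0 of 8 members were 1.5-fold higher and 3 lower, beside 26% of 8603 genes higher and 8.45% lower. They were Lgals3 (-1.75, Poisson 95% interval -1.90 to -1.60), S100a6 (-0.75) and Vim (-0.67), while S100a4 was at 0.18. The median was -0.39 over the 8 members and 0.19 over all genes. The same 3 were lower among cells of 5000 to 20000 UMIs, with Lgals3 at -1.24, beside 35.5% of 8168 genes higher and 8.74% lower. So it was in CD8 cells, where Lgals3 was at -1.79, beside 27.3% of 8604 genes higher and 10.6% lower. Among CD8 cells of 5000 to 20000 UMIs, Lgals3 (-0.97) and S100a6 (-0.62) were lower, beside 38.4% of 8350 genes higher and 11.2% lower. The lower ones in CD4 conventional cells were again these 3, with Lgals3 at -1.21, beside 31.1% of 8259 genes higher and 11.7% lower. In Mki67-positive CD8 cells Lgals3 and Vim were lower, beside 22.5% of 8790 genes higher and 9.52% lower.

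For the combination against ATT-I, 0 of 8 members were 1.5-fold higher and 1 lower, Lgals3 (-1.24), beside 28.2% of 8612 genes higher and 7.21% lower. Lgals1 was the highest at 0.37. Lgals3 (-1.07) and Vim (-0.64) were lower among cells of 5000 to 20000 UMIs, beside 37.3% of 8178 genes higher and 6.19% lower. In CD8 cells Lgals3 (-1.48) was the 1 of 8 lower, beside 32.5% of 8661 genes higher and 10.2% lower, and the median over the 8 was -0.0455. CD8 cells differed in depth, with medians of 28170 UMIs in combination and 9255.5 in ATT-I. Among CD8 cells of 5000 to 20000 UMIs, Lgals3 (-1.11) was still the 1 lower, beside 43.1% of 8483 genes higher and 10.8% lower, but the median over the 8 was 0.12. In Mki67-positive CD8 cells Lgals3 (-1.98) and Vim (-0.91) were lower, beside 25.6% of 8977 genes higher and 12.6% lower. None of the 8 passed in CD4 conventional cells, beside 35.7% of 8309 genes higher and 10.5% lower, and Lgals3 was at -0.28. The 5 comparisons share libraries, so their values are not independent of each other.

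Anxa1 had 19 UMIs in combination, 45 in ATT-I, 1827 in anti-PD-1 and 52 in vehicle cells. Its log2 ratio for the combination was -1.70 against anti-PD-1 (Poisson 95% interval -2.43 to -1.05), -1.40 against ATT-I (-2.26 to -0.60) and -1.51 against vehicle (-2.36 to -0.73). With cells of 5000 to 20000 UMIs alone, the combination held 7 Anxa1 UMIs and vehicle 17, and the ratio was -0.91 (-2.42 to 0.43). Vehicle CD8 cells held 2 Anxa1 UMIs, so no ratio is given there.

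**Figure D4:**
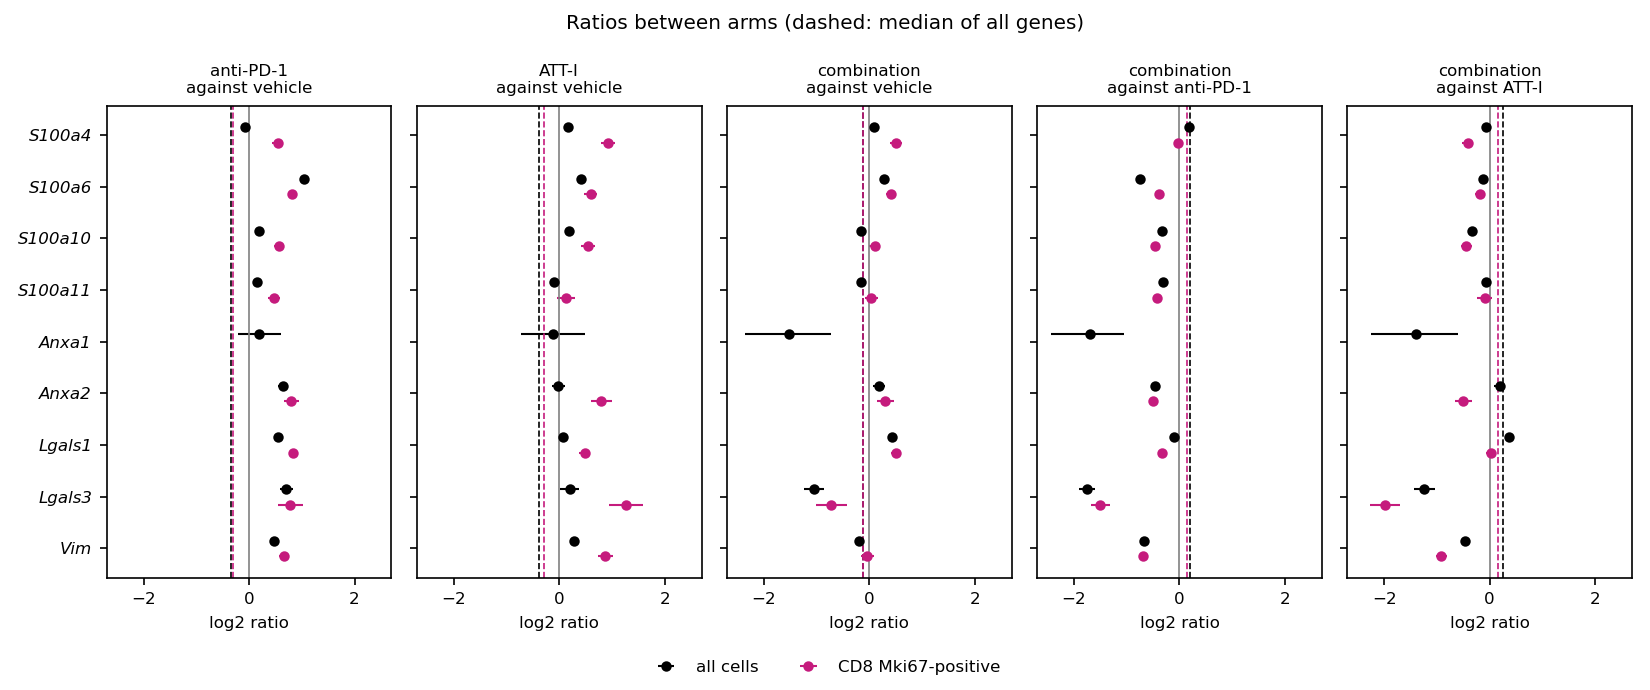
Log2 ratio between arms (x axis) of each gene in all cells (black) and in Mki67-positive CD8 cells (pink), with Poisson 95% intervals and the median of all genes as a dashed line, in 5 comparisons. Anxa1 is drawn for all cells only. Lgals3 lies at -1.75 in all cells of the combination against anti-PD-1.

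Other genes of the families and their partners were read in the same fits. Over all genes, 8.07% were higher and 9.96% lower in CD8 than in CD4 conventional cells, and 0.572% higher and 1.14% lower with Tcf7 in CD8 cells. Among other S100, annexin and galectin genes, 11 were tested between CD8 and CD4 conventional cells, where 0 rose and 3 fell: Lgals7 (-2.41; limma adjusted p = 0.000936), Anxa5 (-0.79; 0.00358) and S100a13 (-0.55; 0.00847). For Tcf7 in CD8 cells, 0 of 11 such genes passed in limma, and 1 had an unadjusted p under 0.05, beside 1223 of 8568 genes. Among partners and receptors, 1 of 9 rose with Tcf7 in CD8 cells, the integrin subunit gene Itgb1 (0.64; limma adjusted p = 0.0461), and 0 fell. Itgb1 was lower in Treg than in CD4 conventional cells (-1.42; limma adjusted p = 0.000124). Ahnak, which encodes a scaffold protein that binds the S100A10 and annexin A2 complex, was lower in CD8 than in CD4 conventional cells (-0.74; limma adjusted p = 0.0029).

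Quiescence genes moved opposite to the members in the Tcf7 contrast. In Tcf7-positive CD8 cells 6 of 10 rose and 0 fell, beside 0.572% of all genes higher and 1.14% lower, with Lef1, a transcription factor related to TCF-1, at 1.79 (limma adjusted p = 0.00438). S1pr1, the receptor for tissue exit, was at 1.47 and Klf2 at 1.35. Of 21 effector memory cytoskeletal and adhesion genes, 2 rose, Itgb7 (1.11; limma adjusted p = 0.0154) and Tmsb10 (0.44; 0.0461), and 1 fell, Actg1 (-0.49; 0.0330). Capg, one of the genes most like the members cell by cell, was at -0.67 and did not pass (limma adjusted p = 0.119).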

How the data were processed

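The deposited table holds values on a natural log scale, which the authors made with Cell Ranger, Seurat and genome build mm10, per the submitters' processing notes, with versions not given in the sources used here. The values were read as the natural log of 1 plus UMIs per 10000, lowered by a constant per library (0.2254 in combination, 0.1532 in ATT-I, 0.2485 in anti-PD-1, 0.2471 in vehicle) whose reason no label gives, with values under 0 set to 0. Whole UMIs were rebuilt, and 100% of non-zero values came within 0.02 of a whole number. In 37 combination, 0 ATT-I, 37 anti-PD-1 and 21 vehicle cells, genes with 1 UMI had been set to 0. Cells were not filtered further and doublets were not removed.

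A cell was CD8 with at least 2 Cd8a and Cd8b1 UMIs and at least 3 times its Cd4 UMIs, and CD4 with at least 1 Cd4 UMI and no more Cd8a and Cd8b1 than Cd4. A cell was positive for Foxp3, Tcf7 or Mki67 with at least 1 UMI. limma 3.58.1 in R 4.3.3 with a variance trend and library as a block tested log2(level + 0.1), adding 0.1 UMIs per 10000. Genes found in at least 10% of cells of either gate were tested, with Benjamini-Hochberg adjustment over all of them at 0.05. A library needed 10 cells per gate. The difference between CD8 and CD4 conventional effects was fitted on differences within libraries, with the variance trend on mean expression, a test added after the data were seen. It was first fitted with the trend on the difference itself, which gave almost no small p-values, and only the refit is given. The fits were also run on simulated counts with 1 fixed dispersion for all genes. The real spread between libraries can differ from that, so no result here rests on those runs. Arms were compared without a test, by exact Poisson 95% intervals and a 1.5-fold limit. Intervals cover counting error only. Anxa1 was left out of the counts between arms after its values were seen. Members, gene lists and comparisons were chosen with earlier results of these data known. Every member is named; related genes are those with the largest Tcf7 differences in CD8 cells, while related genes named for other contrasts, and Tmsb10, were picked after their values were seen. Python 3.11.15 was used for the rest. The value of 1 gene of the related lists is not reported here.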

Additional observations from a re-analysis of the deposited data

Results flagged for a closer look

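For 3 results the CD8 and CD4 conventional gates pointed in opposite directions under the same comparison of arms. With 1 library per arm, none of these differences was tested. S100a4 for anti-PD-1 against vehicle had a log2 ratio of 0.44 in CD8 cells and -0.24 in CD4 conventional cells. S100a10 for the combination against vehicle was at 0.11 in CD8 cells and -0.19 in CD4 conventional cells. S100a4 for the combination against anti-PD-1 was at -0.0725 in CD8 cells and 0.30 in CD4 conventional cells.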

How the results depend on the processing

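Of 14 member differences between gates that passed, 14 kept their sign under every alternative fitted, and 7 passed without each library in turn. Counts of genes called moved more. Without the filter on low genes they were 331 for CD8 against CD4 conventional (1511 as reported) and 0 for Treg (473), Tcf7 in CD8 (147), Tcf7 in CD4 (75), Mki67 in CD8 (524) and Mki67 in CD4 (301), with 1695, 1386, 961, 1329 and 1213 genes at an unadjusted p under 0.05 in limma. More genes are tested there, and S100a6 (adjusted p = 0.0300) and S100a10 (0.0349) between CD8 and CD4 conventional cells were the only member calls left. Without the library block the counts were 431, 119, 2, 6, 291 and 178 in that order, and none of the 14 members passed. Leaving out 1 library gave 744 to 1495, 189 to 507, 54 to 134, 16 to 90, 448 to 845 and 161 to 314. With cells of 5000 to 20000 UMIs, chosen after seeing the data, they were 681 for CD8 against CD4, 108 for Treg, 43 for Tcf7 in CD4 and 32 for Mki67 in CD4. Among Mki67-negative cells they were 81 for CD8 against CD4 and 216 for Tcf7 in CD4. Summed UMIs gave 29 for Tcf7 in CD4 and 539 for Mki67 in CD4, and gates read after thinning to 3000 UMIs gave 82 for Tcf7 in CD8 and 193 for Mki67 in CD4. The cause of these moves was not tested.

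Between arms, the median over all 9 members for anti-PD-1 against vehicle (0.48) was 0.33 with summed UMIs, 0.59 with equal gate weights, 0.25 in Mki67-negative cells and 0.82 relative to all genes. For ATT-I against vehicle (0.16) these were 0.29, 0.25, -0.0495 (reversed) and 0.54, and 0.24 with cells of 5000 to 20000 UMIs. For the combination against vehicle (-0.15) it was 0.0503 with equal gate weights (reversed), -0.23 in Mki67-negative cells and -0.0424 relative to all genes. For the combination against anti-PD-1 (-0.45) it was -0.55 with summed UMIs, -0.69 in Mki67-negative cells, -0.64 relative to all genes and -0.56 with cells of 5000 to 20000 UMIs. For the combination against ATT-I (-0.13) it was -0.26 with summed UMIs, -0.22 with equal gate weights, -0.28 in Mki67-negative cells, -0.38 relative to all genes and -0.25 with cells of 5000 to 20000 UMIs. The cause was not tested.

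Treg against CD4 conventional could not be fitted with thinned gates or in Mki67-negative cells, which left too few Treg cells. No paired analysis was possible because each arm has 1 library and the labels give no replicate numbers shared between arms; this concerns the arms alone, since gates were compared within each library.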
